A study of Mus musculus with 18 samples.

Results

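The genes for the mitochondrial ribosomal proteins were followed in soleus and extensor digitorum longus (EDL) muscle of mice flown in space and of ground mice kept in 2 ways. A gene was taken as a member when a probe set of the array was annotated with that gene symbol alone and the symbol began with Mrpl or Mrps and a digit. This gave 74 genes out of 12393 genes with a probe set of their own, among 22626 probe sets without controls. The members had 127 such probe sets, and 33 of the 74 genes had more than 1, with up to 7 for a single gene. The probe set with the highest mean signal over all arrays stood for its gene. A further 3 probe sets name a Mrpl or Mrps gene together with another gene and were left out. All 74 members were matched to a RefSeq gene by their Entrez number, they lie on 17 chromosomes, and they are 74 of the 78 protein-coding genes with such symbols in the RefSeq table.

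The samples were 18 arrays from adult male C57/BL6 mice, with 3 arrays for each of 6 groups, and no group carried a transgene or a drug treatment. BF mice lived for 30 days aboard the Bion-M1 biosatellite. BG mice spent the same time on the ground in a copy of the flight habitat, and FC mice were kept in a standard animal facility. By the study's methods BF and BG mice ate the paste food of the mission and FC mice ate chow, and BF mice were transported after landing, so transport cannot be told apart from flight in either BF comparison, and food cannot be told apart from the group in comparisons with FC. Soleus is a slow postural calf muscle rich in mitochondria, and EDL is a fast muscle that lifts the toes. Each array reports RMA signals on a log2 scale, so a difference of 1 is a 2-fold change, and a change is written below as log2 fold change ± standard error of the limma fit. A member was called when its p, adjusted over all probe sets, was under 0.05 at any fold change.

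Mitochondria carry their own ribosomes, which translate the few proteins that the mitochondrial DNA encodes, all of them subunits of the respiratory chain or of ATP synthase. The RNAs of these ribosomes come from the mitochondrial genome, whereas every one of their proteins is encoded in the nucleus, made in the cytosol and imported. Many of the proteins have a counterpart in the bacterial ribosome, and others are found only in mitochondria. The members were sorted by role into 28 large subunit proteins with a bacterial counterpart, 21 large subunit proteins specific to mitochondria, 15 small subunit proteins with a bacterial counterpart and 9 small subunit proteins specific to mitochondria. In a few cases the symbol does not give the place. Mrps18a and Mrps30 belong to the large subunit and were counted there, and Mrps36 is a subunit of the oxoglutarate dehydrogenase complex of the citric acid cycle and was kept as a class of its own.

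Since the members are scattered over the genome and many moved together, their promoters were searched for short motifs of factors known for nuclear genes of mitochondria. RefSeq promoter windows, from 250 bases before to 50 bases after the start in the GRCm38.p6 build, were given for 65 of the 74 members and for 27025 genes in all. The 27025 were neither limited to genes on the array nor matched to the members by signal. The core of the ETS family as bound by GABP, CCGGAAG, was found on either strand in 24 members, or 36.9%, against 9.93% of all genes. The core of NRF-1, GCATGCGC, was found in 8 members (12.3% against 3.05%), and that of YY1, AAGATGGC, in 11 (16.9% against 3.19%). The site of the oestrogen-related receptors, AAGGTCA, was in 4 members, or 6.15%, against 5.38% of all genes. At least 1 of the 4 was found in 38 members, which is 58.5% against 19.7%. The ETS core ends in the 3 letters with which the last pair of motifs begin, but no member's window held an ETS match that shared bases with a match of another motif. Of the 38 members with a window that fell in BF vs. BG soleus, 14 held the ETS core (36.8%), as did 10 of the other 27 (37.0%). The NRF-1 core was in 5 of the 38 and 3 of the 27, the YY1 core in 5 and 6, and the oestrogen-related receptor site in 4 and 0. These are matches of letters in a window and show no binding. Whether other genes of like signal hold these motifs as often was not tested, so the shares cannot be called particular to the members.

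The windows of Mrpl18 and Mrps23, which are among the 4 members with the largest fall in BF soleus, are shown for their ETS match, while those of Mrps9 and Mrpl45 held none of the motifs. Mrpl39 was added after its values were seen, as the leading member with an NRF-1 match. Each is written 5′ to 3′ on the strand of its gene (RefSeq, GRCm38.p6), with the match in capitals and positions counted from the first transcribed base as 1, with negative positions before it. For Mrpl18 the 250 bases before the start on the minus strand are given (chr17:12916092-12916341), with the match at −240. For Mrps23 a stretch of 30 bases after the start on the plus strand is given (chr11:88204392-88204421), where the motif lies on the opposite strand at 16. For Mrpl39 the 250 bases before the start on the minus strand are given (chr16:84735245-84735494), with the match at −123 and, since these letters nearly mirror themselves, another at −125 on the opposite strand.
Mrpl18: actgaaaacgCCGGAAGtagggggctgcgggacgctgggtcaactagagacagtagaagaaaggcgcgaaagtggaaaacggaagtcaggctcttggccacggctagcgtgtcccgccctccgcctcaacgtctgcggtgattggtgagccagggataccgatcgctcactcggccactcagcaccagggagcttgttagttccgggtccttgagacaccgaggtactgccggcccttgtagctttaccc
Mrps23: tgccgcttccgCTTCCGGtaacagcccgag
Mrpl39: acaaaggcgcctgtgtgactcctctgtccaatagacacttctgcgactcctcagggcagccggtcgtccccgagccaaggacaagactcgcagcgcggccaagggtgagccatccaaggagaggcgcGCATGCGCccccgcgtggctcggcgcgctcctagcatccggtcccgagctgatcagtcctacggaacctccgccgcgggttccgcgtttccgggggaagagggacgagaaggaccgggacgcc

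Arrays of the same group correlated between 0.978 and 0.995, and the muscles carried the markers of their type, with 8 of 8 slow fibre genes higher and 9 of 10 fast fibre genes lower in soleus than in EDL of ground mice. A sign of RNA quality set the soleus FC arrays apart. On arrays of this kind the control probe sets for Gapdh and Actb sit at the 3′ and at the 5′ end of the transcript, and a larger 3′ minus 5′ difference goes with shorter copies. For Gapdh this difference (log2) was 0.58 to 0.86 on the soleus FC arrays, 0.04 to 0.10 on soleus BG and 0.09 to 0.32 on soleus BF. For Actb it was 0.48 to 0.58, −0.12 to 0.13 and 0.04 to 0.18. In EDL, FC stood at 0.17 to 0.20 for Gapdh, and BG array 2 at 0.35 was the highest of that muscle. The same EDL BG array carried epidermis markers, whose summed signal over 8 genes was 3818 there and 304 to 664 on the other EDL arrays. Every comparison with FC therefore also compares arrays of different 3′ to 5′ balance, and such values are given beside the results they touch.

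**Figure D1:**
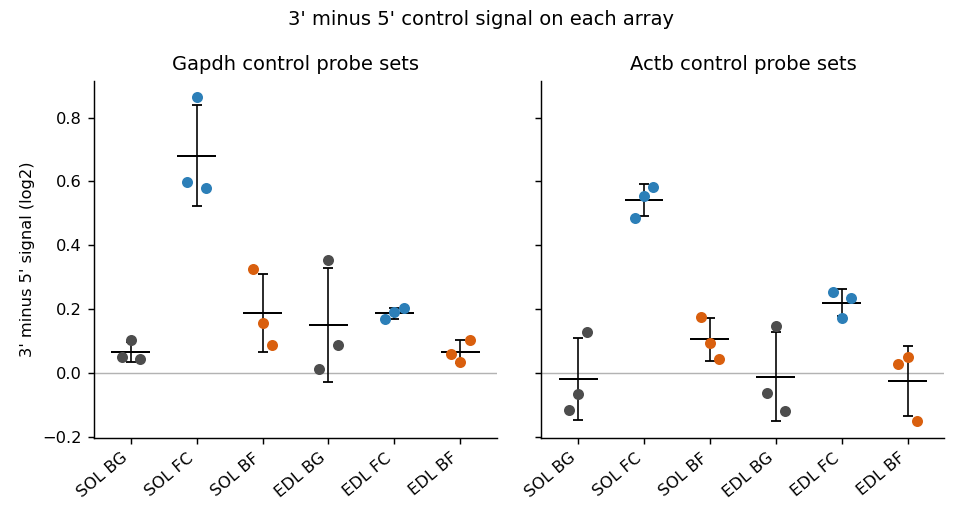
Difference between the 3′ and the 5′ control probe sets of Gapdh (left) and Actb (right), in log2 units, for each array (points), with the mean (line) and SD (bars) of the 3 arrays of a group. The soleus FC arrays lie at 0.58 to 0.86 for Gapdh and at 0.48 to 0.58 for Actb, above every other array.

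Most mitochondrial ribosomal protein genes were lower in soleus of BF mice than of BG mice. Of the 74 members, 41 fell, 1 rose and 32 were not called, and the log2 fold change of the median member was −0.45. Among the 41 that fell the change ran from −1.14 to −0.30, that is from 2.20-fold to 1.23-fold, so that the decrease was wide but mostly under 2-fold. Over all probe sets 11.9% were called lower and 10.3% higher, with a median of 0.04. All 74 members had a mean signal above the median of all probe sets, and among probe sets above that median 20.3% were lower and 9.09% higher, with a median change of −0.10, against 55.4% lower and 1.35% higher among the members. The arrays of the groups did not overlap. Taken as the median over members of the log2 signal minus the gene's own mean, the level was −0.34, −0.24 and −0.15 on the 3 BF arrays and 0.14, 0.22 and 0.24 on the 3 BG arrays. The size of the decrease depended on the scaling. When the arrays were quantile normalized once more, 21 members were lower and 1 higher, and the median was −0.31. For this and every other fit, scaling or set of arrays tried below, the share called over all probe sets was not computed. Nor was it for counts of genes by any of their probe sets. Such counts therefore show how stable the calls were and are not set against a share. In whole muscle, fewer fibres or cells of a type and less RNA per cell cannot be told apart.

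**Figure D2:**
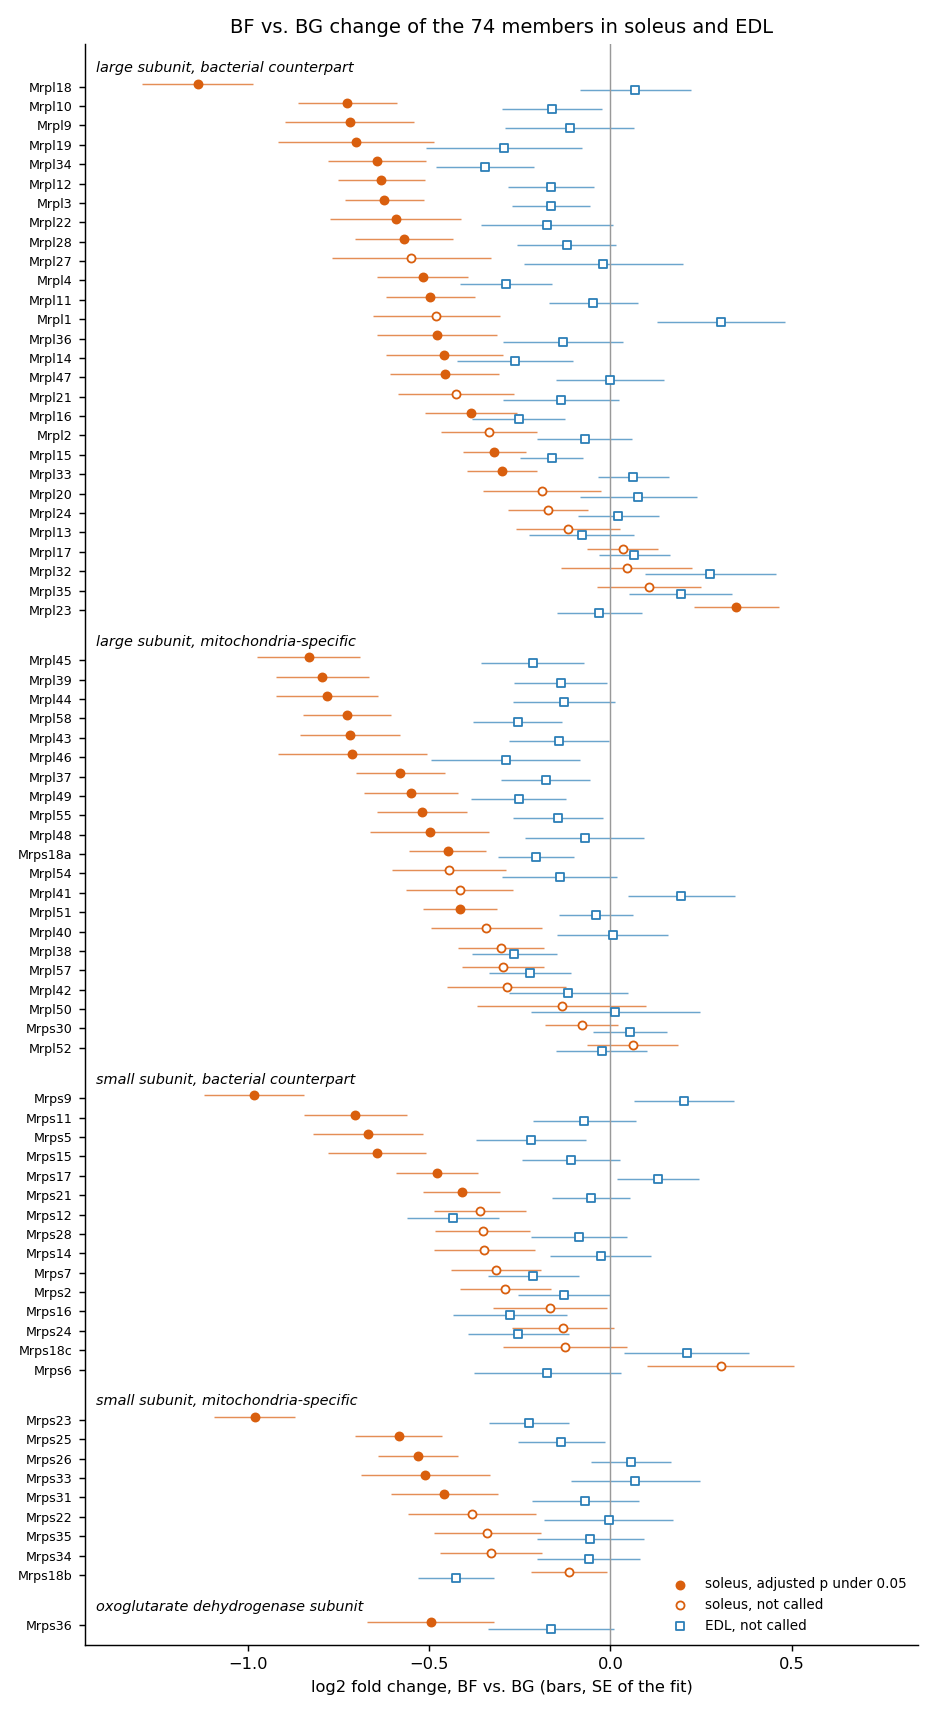
Log2 fold change for BF vs. BG of each of the 74 members in soleus (circles) and EDL (squares), by role, with the standard error of the limma fit as bars and filled symbols for an adjusted p under 0.05. In soleus 41 members lie below 0 with a filled symbol and 1 above it, and in EDL none is filled.

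Among large subunit proteins with a bacterial counterpart 17 of 28 fell and 1 rose, with a median of −0.47. The largest fall of any member was that of Mrpl18, whose bacterial counterpart binds the smallest ribosomal RNA. Its signal was 10.66, 10.72 and 10.98 on the BG arrays and 9.74, 9.35 and 9.85 on the BF arrays. All 3 BF arrays were below all BG arrays, and the change was −1.14 ± 0.15 (adjusted p = 0.00012). Mrpl10 forms the base of the stalk that recruits translation factors, and read 8.80, 8.78 and 8.87 in BG against 8.03, 7.95 and 8.30 in BF. The groups were apart, with a change of −0.73 ± 0.14 (adjusted p = 0.0017). Mrpl12, the stalk protein that Mrpl10 carries, changed by −0.63 and was called too. Mrpl9 changed by −0.72 ± 0.18 (adjusted p = 0.0088), from 9.55, 9.42 and 9.52 in BG to 8.87, 8.51 and 8.96 in BF, again without overlap. Proteins that line the exit tunnel were also among those that fell, Mrpl4 with −0.52 and Mrpl22 with −0.59. The 10 members of this class that were not called ranged from −0.55 for Mrpl27 to 0.11 for Mrpl35.

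The single member that rose was Mrpl23, a protein at the mouth of the exit tunnel. Its signal was 10.22, 10.44 and 10.34 on the BG arrays and 10.62, 10.57 and 10.85 on the BF arrays, which all lay above BG, and its change was 0.35 ± 0.12 (adjusted p = 0.042). The call was a narrow one, since it was lost when the array medians were set equal, when soleus was fitted alone, when the soleus FC arrays were left out, and when any 1 of soleus BF array 1 or 3, a soleus BG array, EDL BG array 3, EDL FC array 2 or EDL FC array 3 was left out, with adjusted p from 0.050 to 0.15.

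Of the 21 large subunit proteins specific to mitochondria 12 fell and none rose, with a median of −0.45. Mrpl45, which faces the inner membrane at the tunnel exit, went from 10.19, 9.86 and 10.07 in BG to 9.28, 9.19 and 9.15 in BF. This was a change of −0.83 ± 0.14 (adjusted p = 0.00076), and no BF array reached a BG array. Mrpl39, which resembles a threonyl-tRNA synthetase, read 10.63, 10.51 and 10.70 in BG and 9.99, 9.62 and 9.84 in BF, a change of −0.79 ± 0.13 (adjusted p = 0.00048). Mrpl44, which has a fold like that of ribonuclease III, read 9.78, 9.60 and 9.80 in BG and 9.05, 8.59 and 9.18 in BF, a change of −0.78 ± 0.14 (adjusted p = 0.0011). For both genes every BF array was below every BG array. Mrpl58, which can release stalled peptides from the ribosome, changed by −0.73 ± 0.12 (adjusted p = 0.00067), and Mrpl43 by −0.72 ± 0.14 (adjusted p = 0.0018). Mrps18a, a large subunit protein in spite of its name, fell by 0.45 on the log2 scale (adjusted p = 0.0065), while Mrps30 stood at −0.08 and Mrpl52 at 0.06 without a call.

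In the small subunit 6 of the 15 proteins with a bacterial counterpart and 5 of the 9 specific to mitochondria fell, with medians of −0.35 and −0.46. Mrps9, whose counterpart reaches towards the transfer RNA in the decoding centre, read 9.01, 9.26 and 9.24 in BG and 8.20, 8.01 and 8.35 in BF. The groups were well apart, and the change was −0.98 ± 0.14 (adjusted p = 0.00017). Mrps23, found only in mitochondria, had the smallest adjusted p of all members (2.8e-05). Its signal was 9.54, 9.45 and 9.25 in BG and 8.53, 8.30 and 8.47 in BF, a change of −0.98 ± 0.11. Mrps11 with −0.70, Mrps5 with −0.67 and Mrps15 with −0.64 followed, but the other probe set of Mrps11 gave 0.37 and was not called. Mrps12, a protein of the decoding centre, stood at −0.36 (adjusted p = 0.052) and Mrps6 at 0.30 (adjusted p = 0.29), neither called. Both subunits thus had called members, 29 of 49 lower in the large and 11 of 24 in the small, and no test of a difference between them was made. Mrps36, the subunit of the oxoglutarate dehydrogenase complex, changed by −0.50 with an adjusted p just under the threshold.

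**Figure D3:**
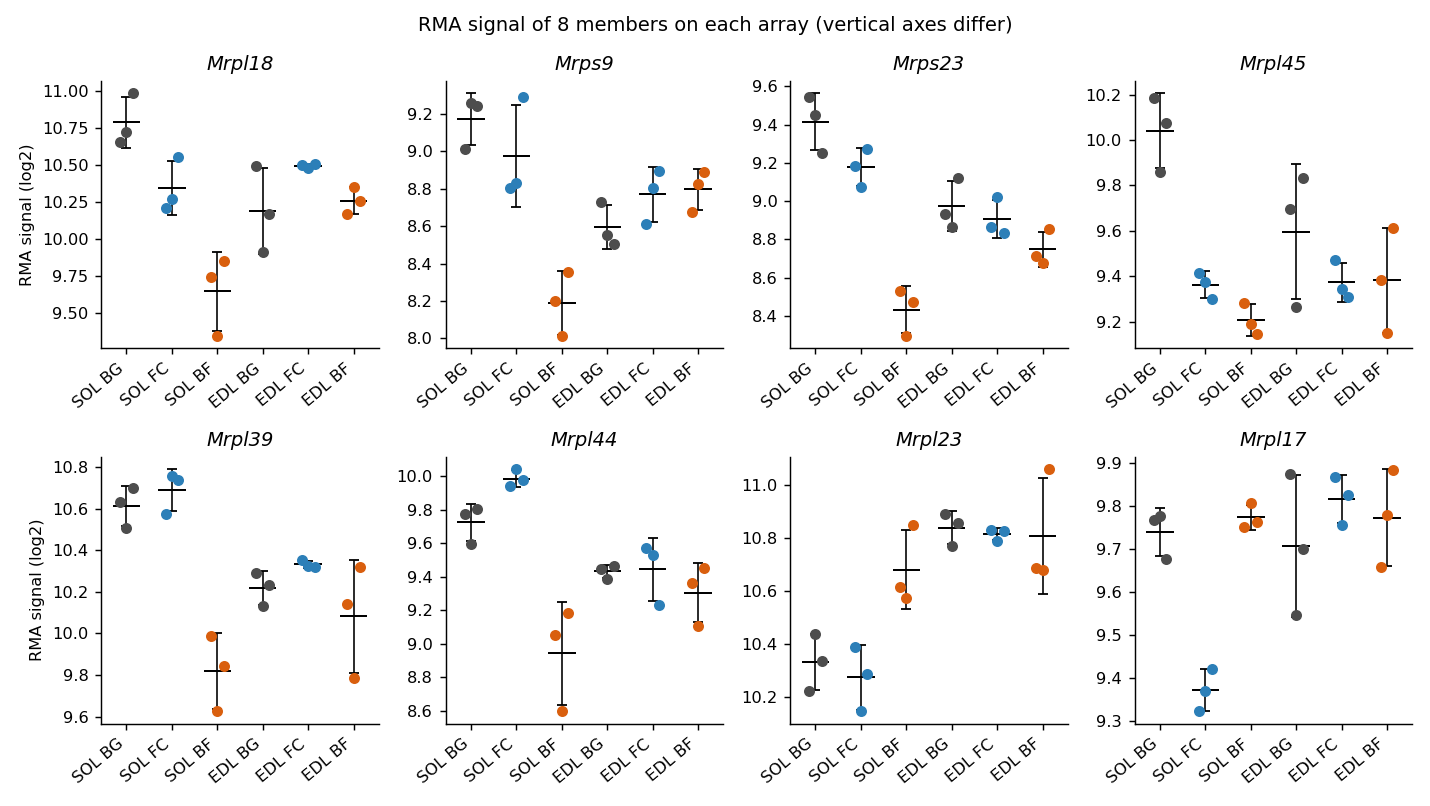
RMA signal (log2) of 8 members on each array (points), with the mean (line) and SD (bars) of the 3 arrays of a group; the vertical axes differ and do not start at 0. In soleus Mrpl18, Mrps9, Mrps23, Mrpl45, Mrpl39 and Mrpl44 are lowest in BF, Mrpl23 is highest in BF, and Mrpl17 is lowest in FC.

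Of the 33 genes with several probe sets, 8 had all of them called in the same direction for BF vs. BG in soleus, 11 had none called and 14 had some called, and no gene had calls in opposite directions. The probe sets of Mrpl44 gave −0.78, −1.18 and −0.75, those of Mrpl39 −0.79 and −0.95, and those of Mrps23 −0.98 and −1.56, all of them called. For Mrps9 the probe sets differed. The brightest gave −0.98, the others gave −0.40, −0.39 and 0.43 and were not called, and the call was lost for the mean of the 4. Mrpl35 was not called at 0.11 by its brighter probe set and fell by 0.43 by the other. Mrpl15, with 7 probe sets, ranged from −0.79 to 0.33, with 3 of them lower and none higher. Mrpl28, with 3 probe sets, ranged from −0.97 to −0.16, with 2 of them lower. Mrpl13 at −0.12 and Mrps24 at −0.13 were not called by the brightest probe set, but fell by 0.69 and 0.44 by another. The remaining genes whose probe sets differed in call were Mrpl11, Mrpl19, Mrpl3, Mrpl33, Mrpl34, Mrps11, Mrps25 and Mrps5, each lower by the brightest. Some of these also had a probe set above 0 that was not called. These were Mrps11 (0.37), Mrps25 (0.22), Mrpl3 (0.16), Mrpl34 (0.14), Mrpl19 (0.12) and Mrpl33 (0.04). In all, 14 of the 33 genes had probe sets of differing sign. Mrpl1, Mrpl21, Mrpl38, Mrpl41 and Mrpl52 had probe sets of differing sign, none called. Counting a gene by any of its probe sets gave 44 members lower and 1 higher.

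Against FC mice 23 members fell in BF soleus, 5 rose and 46 were not called, with a median of −0.22, while 13.8% of all probe sets were lower and 9.94% higher, with a median of 0.01. Among probe sets above the median signal 22.5% were lower and 12.1% higher, against 31.1% and 6.76% of the members. The comparison shares its BF arrays with BF vs. BG and is not independent of it. The count rests on few arrays, since 14 members were called without soleus FC array 3, 16 without soleus FC array 2 and 15 without soleus BF array 2. With the Gapdh 3′ minus 5′ difference as a covariate no member was called and the median was −0.44. That difference does not overlap between soleus BF and FC, so group and RNA quality cannot be told apart here. Tissue markers moved with this comparison too. Of these, 4 of 6 adipocyte genes were called higher (Lep by 2.76) and 5 of 10 fast fibre genes higher (Myh4 by 4.01). Called lower were 4 of 7 tendon and cartilage genes (Chad with −2.71) and 1 of 8 slow fibre genes (Casq2 with −2.04). All 8 slow fibre genes had a change below 0, with a median of −0.71. The mean log2 signal of that list was 12.43 to 12.93 on the BF arrays and 13.47 to 13.52 on FC, without overlap. Of 7 macrophage genes Cd68 was higher by 3.44 and Csf1r lower with −0.80, and of 7 genes for mitochondrial content Cs (−0.39) and Mdh2 (−0.29) were lower. Their part in the result was not tested.

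Mrpl44 led this comparison. Its FC arrays read 9.94, 10.04 and 9.98, all above the BG arrays, and its change for BF vs. FC was −1.04 ± 0.14 (adjusted p = 8.4e-05). Mrpl39 read 10.58, 10.76 and 10.74 in FC and changed by −0.87 ± 0.13 (adjusted p = 0.00016). Mrps9 with −0.79, Mrps23 with −0.74, Mrpl34 with −0.74, Mrpl18 with −0.70 and Mrpl58 with −0.65 were called as well. Mrpl4, Mrpl3 and Mrpl22, in the core of the large subunit, followed with −0.63, −0.61 and −0.60. All probe sets of Mrpl44 and Mrpl39 were called, against 3 of 4 for Mrps9, 1 of 2 for Mrps23 and Mrpl34 and 1 of 3 for Mrpl3. Those not called were also below 0.

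All 5 members that rose against FC were among the 28 large and 15 small subunit members with a bacterial counterpart. Mrpl17 read 9.32, 9.37 and 9.42 in FC and 9.75, 9.81 and 9.76 in BF, a change of 0.40 ± 0.10 (adjusted p = 0.0068), while its BG arrays at 9.77, 9.78 and 9.68 lay with those of BF. Mrpl35 was alike, with 9.89, 9.93 and 9.83 in FC, 10.29, 10.18 and 10.31 in BG and 10.36, 10.23 and 10.52 in BF. Its change against FC was 0.48 ± 0.14 (adjusted p = 0.021). The other probe set gave 0.055 for Mrpl17 and −0.013 for Mrpl35, neither called. Mrpl32, which the m-AAA protease trims before it joins the ribosome, changed by 0.53 ± 0.18 (adjusted p = 0.044), and Mrpl23 by 0.41 ± 0.12 (adjusted p = 0.018). Mrps6 was called at 0.58, but its BF arrays at 8.44, 9.09 and 7.97 overlapped those of FC at 8.01, 7.80 and 7.94.

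The ground groups differed from each other in soleus as well. For FC vs. BG 8 members were lower, none higher and 66 not called, with a median of −0.22, where 5.94% of all probe sets were lower and 5.45% higher with a median of 0.04. Among probe sets above the median signal 9.56% were lower, close to the 10.8% of the members. The count depended on the fit, with 33 members lower with array weights, 15 with array medians set equal and 13 with a replicate block within muscle. It was 5 with ordinary contrasts and 2 after a further quantile normalization. How many of all probe sets these fits called was not computed, so the counts cannot be read as particular to the members. The arrays of FC lay between the others, with levels of −0.07, 0.03 and 0.05 on the scale of deviations. The 8 were Mrpl27 (−0.71), Mrpl19 (−0.70), Mrpl45 (−0.68), Mrpl1 (−0.60), Mrpl9 (−0.60), Mrps17 (−0.41), Mrpl17 (−0.37) and Mrpl24 (−0.35), with adjusted p from 0.0067 for Mrpl45 to 0.0495 for Mrpl24. Mrpl45 read 9.41, 9.37 and 9.30 in FC, near the BF arrays, and its change for BF vs. FC was −0.15. It was the only one of the 8 that kept its call whichever single array was left out. Mrpl9 had all its probe sets lower and Mrpl19 had 2 of 3, while only the brightest was called for Mrpl1 and Mrpl17. Counting a gene by any of its probe sets gave 17 lower and 3 higher. The 3 were Mrps9 (up to 1.38), Mrps25 and Mrpl3, which had probe sets called at −0.77 and at 0.50. Mrpl27 read 10.55, 10.34 and 10.59 in BG, 10.17, 9.58 and 9.58 in FC and 9.77, 9.92 and 10.14 in BF. The 3′ minus 5′ differences of the FC arrays moved with this comparison, and with the Gapdh difference as a covariate no member was called and the median was 0.086.

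Leaving out single arrays gave 1 to 12 calls for FC vs. BG, with 12 members called without EDL BF array 3, 1 member called without soleus BG array 1, soleus BG array 3 or soleus FC array 2, 3 without soleus BG array 2, 4 without soleus FC array 1, and 5 without soleus FC array 3, EDL BF array 1 or EDL FC array 2. By order of the group means in soleus, BG was highest and BF lowest for 43 of the 74 members, which was also the order of the median member. For 15 FC was highest and BF lowest, among them Mrpl44, Mrpl39 and Mrpl34, and for 10 BG was highest and FC lowest, among them Mrpl27. BF was highest for the remaining 6, with FC lowest in 5 of them.

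**Figure D4:**
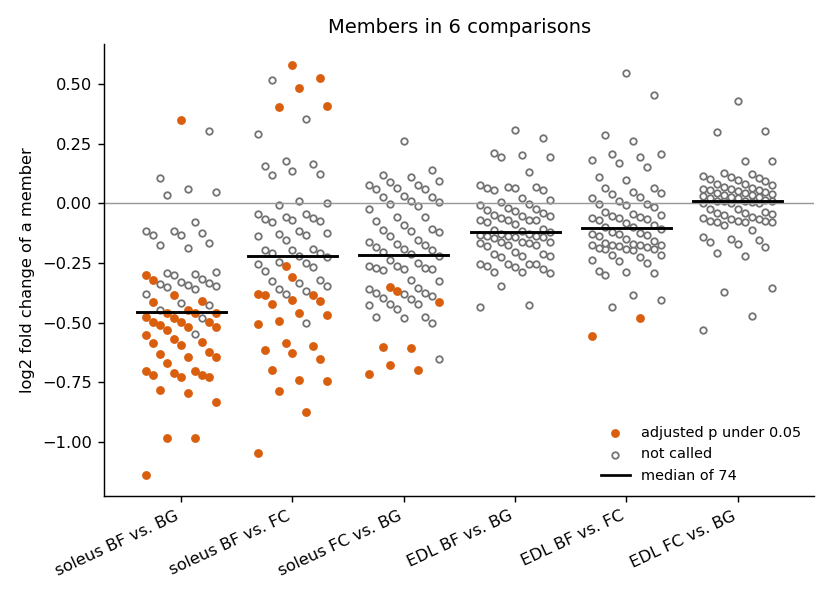
Log2 fold change of each of the 74 members (points) in the 3 comparisons of soleus and the 3 of EDL, with filled points for an adjusted p under 0.05 and a bar at the median. The medians are −0.45, −0.22 and −0.22 in soleus and −0.12, −0.10 and 0.01 in EDL; the comparisons within a muscle share arrays.

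In EDL few members were called. For BF vs. BG limma called none, with a median of −0.12, while 0.115% of all probe sets were lower and 0.27% higher. At an unadjusted p under 0.05 there were 5 of the 74 members, all lower, and 2690 of the 22626 probe sets. Ordinary contrasts without moderation called no member after adjustment. With array weights 2 members were lower. The smallest p belonged to Mrps18b, a small subunit protein of mitochondria, which read 8.82, 8.80 and 9.08 in BG and 8.44, 8.40 and 8.59 in BF, a difference of −0.43 ± 0.10 (adjusted p = 0.093). Mrps12 with −0.43, Mrpl34 with −0.35 and Mrpl4 with −0.29 came next, with adjusted p of 0.17, 0.31 and 0.38. The arrays of the groups overlapped, at −0.21, −0.09 and 0.11 on the scale of deviations in BF and −0.12, 0.09 and 0.17 in BG, where −0.12 was BG array 2, the one with the epidermis markers. Without that array the median was −0.18 and no member was called. Slow fibre markers also varied among the EDL arrays. Their summed signal was 3732 to 15095 in BG, 5529 to 8570 in BF and 1615 to 15049 in FC, and its part in the EDL comparisons was not tested.

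For BF vs. FC in EDL 2 members fell, none rose and the median was −0.10, with 2.17% of all probe sets lower and 1.6% higher. Mrps2, a protein of the back of the small subunit, read 8.29, 8.34 and 8.39 in FC and 7.65, 7.89 and 7.81 in BF, a change of −0.56 ± 0.13 (adjusted p = 0.022). Mrps18b read 8.94, 8.97 and 8.96 in FC and changed by −0.48 ± 0.10 (adjusted p = 0.017). For both the groups were apart, but no member was called when EDL BF array 1, EDL FC array 2 or EDL FC array 3 was left out. The other probe set of Mrps2 gave 0.078 and was not called. A count of 2 out of 74 is near the share over all probe sets. Of 7 tendon and cartilage markers 1 fell in this comparison, Chad with −2.27, and its part was not tested. With array weights 8 members were lower and 1 higher, but the share over all probe sets in that fit was not computed. For FC vs. BG limma called none, where 0.0221% of all probe sets were lower and 0.0133% higher, and the median was 0.01. An unadjusted p under 0.05 was passed by 4 of the 74 members and by 2709 of the 22626 probe sets. Ordinary contrasts called none of these 4 members after adjustment and a fit with array weights called 1. Those with the smallest p were Mrps2 at 0.43, Mrpl50 at −0.53, Mrps15 at 0.30 and Mrpl27 at −0.47, with adjusted p from 0.22 to 0.41. The other probe set gave −0.17 for Mrps2, 0.10 for Mrpl50 and 0.35 for Mrps15, none called. Mrpl50 had the widest range of group means among members whose order in EDL differed from that of the median member (0.55, with BF highest and FC lowest), followed by Mrpl27, Mrpl9 and Mrpl19. EDL BG array 2, with its higher Gapdh difference, was the lowest BG array for these 4 genes, at 8.14, 9.76, 8.83 and 7.59.

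Whether BF vs. BG differed between the muscles was tested as an interaction, that is the log2 fold change in soleus less the one in EDL. It was below 0 for 67 of the 74 members, with a median of −0.35, and 7 members were called lower and none higher. Over all probe sets 5.35% were lower and 3.92% higher, with a median of 0.05, and among probe sets above the median signal 9.11% were lower, close to the 9.46% of the members. Mrpl18 gave −1.21 ± 0.22 (adjusted p = 0.0048), with EDL arrays at 10.49, 9.91 and 10.17 in BG and 10.17, 10.35 and 10.26 in BF, which overlapped. Mrps9 gave −1.19 ± 0.20 (adjusted p = 0.0032), and its EDL arrays read 8.73, 8.55 and 8.50 in BG and 8.68, 8.83 and 8.89 in BF. Mrps23 gave −0.76 ± 0.16 (adjusted p = 0.010). Mrpl39 and Mrpl44 gave −0.66 each, Mrps17 gave −0.61 and Mrps26 gave −0.59. Mrpl18 and Mrps23 were called under every alternative fit or scaling, Mrps9 under each one but the mean of its probe sets, and the other 4 lost their call when single arrays were left out. For the other 67 members a difference between the muscles was not shown by the probe set that stood for the gene. Counting a gene by any of its probe sets gave 11 lower and 3 higher. The 3 were Mrps11 (0.77), Mrps25 (0.62) and Mrpl15, which also had a probe set called lower. The count of called members depended on the fit in both directions, and the share of all probe sets called under these fits was not computed. With array weights 17 members were lower and 1 higher, with array medians set equal 17 were lower, and with a replicate block of condition and number 13 were lower. After a further quantile normalization 3 were lower, with a median of −0.17, and with the Gapdh difference as a covariate 3 were lower. Of single arrays, leaving out EDL BF array 2 gave 13, soleus BF array 1 or EDL BG array 2 gave 4, and soleus BG array 2, soleus BG array 3 or EDL BG array 3 gave 3.

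In ground mice the muscles differed little as a whole, with a median of 0.06 for soleus vs. EDL, but 17 members were higher in soleus and 4 lower. Over all probe sets 11.3% were higher and 11.2% lower, and among those above the median signal 17.4% were higher and 17.4% lower, against 17 of 74 and 4 of 74 members. Mrpl14, at the face where the subunits meet, was higher by 0.61 ± 0.11 (adjusted p = 0.00071) and Mrps35 by 0.49 ± 0.10 (adjusted p = 0.0022). Mrpl43 with 0.42, Mrpl44 with 0.42, Mrpl3 with 0.41, Mrpl39 with 0.38, Mrpl28 with 0.36, Mrpl33 with 0.30 and Mrpl58 with 0.26 were higher too. Both probe sets of Mrpl39 were called, but only 1 of 3 for Mrpl44, 1 of 2 for Mrpl33 and 2 of 3 for Mrpl3 and Mrpl28. The lowest values of these last 4 genes were 0.10, 0.11, 0.08 and 0.06. Mrpl23 was lower in soleus with −0.52 ± 0.08 (adjusted p = 0.00016), at 10.14 to 10.44 on the 6 ground arrays of soleus and 10.77 to 10.89 on those of EDL. Mrps16 gave −0.42 (adjusted p = 0.0098). With the Gapdh difference as a covariate 11 members were higher and 1 lower, and with a replicate block within muscle 4 were higher and 1 lower.

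The rest of the machinery of mitochondrial gene expression was read from a list of genes under other symbols, of which 58 were measured. In BF vs. BG soleus 25 of these fell and 1 rose, with a median of −0.33, and against FC 28 fell and 1 rose, with a median of −0.33. The shares that fell were 43.1% and 48.3%, against 20.3% and 22.5% of probe sets above the median signal. Of 4 ribosomal proteins under other symbols, Gadd45gip1 with −0.70 and Ptcd3 with −0.47 fell against BG, while Dap3 at −0.32 and Chchd1 at −0.21 were not called. Of 5 genes listed under transcription 2 fell, Tfam with −0.66 and Tfb1m with −0.73. Tfam packages mitochondrial DNA and takes part in its transcription. Tfb1m stood in this list although it methylates the small ribosomal RNA. Of 13 genes for RNA stability and processing 8 fell, among them Fastkd2 with −0.94 and Lrpprc, which protects mitochondrial messenger RNAs, with −0.69. Of 7 genes for initiation, elongation and recycling 5 fell, among them the initiation factor Mtif2 with −1.14, Gfm2 with −0.98 and Gfm1 with −0.65.

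Of 16 ribosome assembly genes 5 fell in BF vs. BG soleus, among them Trub2, a pseudouridine synthase, with −0.91, and the ribosomal RNA methyltransferases Nsun4 and Mrm2 with −0.90 and −0.82. Among 13 genes that charge or amidate transfer RNAs 3 fell and 1 rose, with a median of −0.06. Here Qrsl1, a subunit of the glutamyl-tRNA amidotransferase, gave −1.46 and Iars2 −0.57, whereas Ears2 gave 0.46. In EDL none of the 58 was called for BF vs. BG and 1, Tars2 with −0.50, for BF vs. FC. For the difference between the muscles 7 of the 58 were lower, including Qrsl1 with −1.44, Mtif2 with −1.19, Trub2 with −1.10, Fastkd2 with −1.07 and Tfb1m with −0.82. This is 12.1% of the list, against 9.11% of probe sets above the median signal. For FC vs. BG in soleus 4 fell and 2 rose, or 6.90% and 3.45% against 9.56% and 7.23% of those probe sets. For soleus vs. EDL 7 were higher and 2 lower, or 12.1% and 3.45% against 17.4% each.

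The ribosomal proteins of the cytosol, measured by 49 genes with Rpl or Rps symbols, did not follow those of mitochondria. In BF vs. BG soleus 10 were higher and none lower, with a median of 0.13, and against FC 15 were higher and none lower, with a median of 0.25. The shares that rose were 20.4% and 30.6%, against 9.09% and 12.1% of probe sets above the median signal. Rpl12 gave 1.29 and Rps25 0.91 against BG. On the scale of deviations their level was 0.07 to 0.22 on the BF arrays, −0.03 to 0.02 on BG and −0.17 to −0.08 on FC, with no overlap between BF and either ground group. The respiratory chain and ATP synthase, with 79 nuclear genes, had 33 lower and none higher against BG and 25 lower against FC, with medians of −0.26 and −0.22. These are 41.8% and 31.6% of the genes, against 20.3% and 22.5% of probe sets above the median signal. Ndufb10 and Sdhc, subunits of complexes I and II, each gave −0.87 against BG, and Cyc1 gave −0.86 against FC. For FC vs. BG in soleus 3 cytosolic ribosomal proteins were lower and none higher, and 1 respiratory chain gene was lower and 1 higher. The shares lower were 6.12% and 1.27%, under the 9.56% of probe sets above the median signal. In EDL neither list had a called gene for BF vs. BG.

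**Figure D5:**
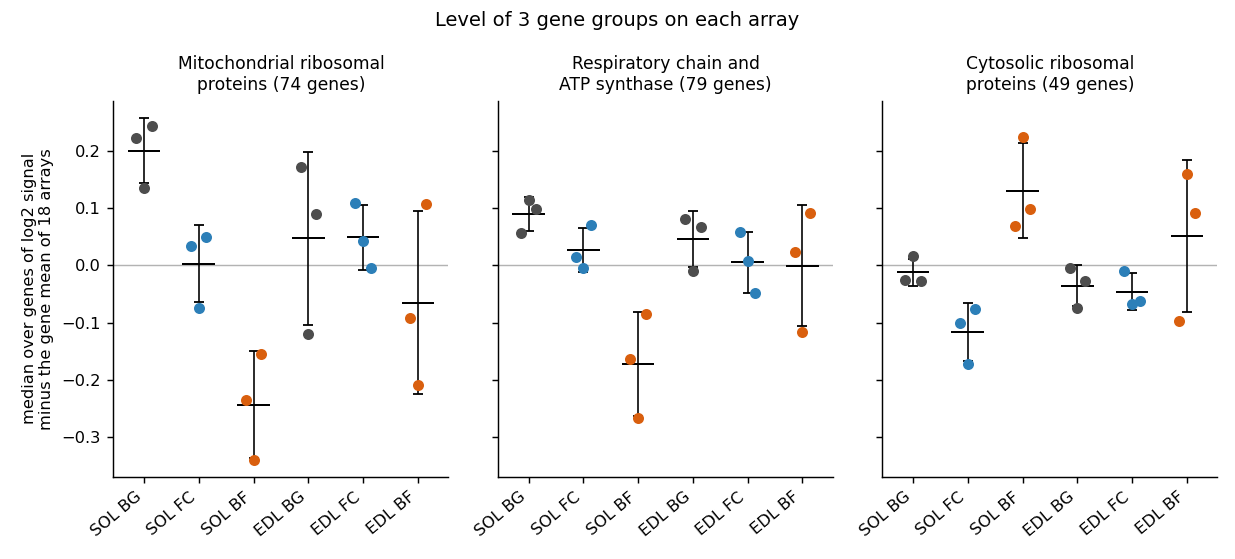
Median over the genes of a group of the log2 signal minus the gene's mean over all 18 arrays, for the mitochondrial ribosomal proteins (left), the respiratory chain and ATP synthase (middle) and the cytosolic ribosomal proteins (right), on each array (points), with the mean (line) and SD (bars) of the 3 arrays. In soleus BF the mitochondrial ribosomal proteins lie at −0.34 to −0.15 and the cytosolic ones at 0.07 to 0.22.

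Other features of the tissue moved with the BF vs. BG comparison in soleus. Of the fast fibre genes 5 of 10 rose, with the largest changes for Actn3 (4.43), Myh4 (4.26) and Pvalb (2.46). Of the slow fibre genes 1 of 8 was called lower, Casq2 with −2.06, but all 8 had a change below 0, with a median of −0.73. The mean level of the slow fibre list was 12.4 to 12.9 on the BF arrays and 13.5 on all BG arrays, and that of the fast list 13.4 to 13.9 and 12.13 to 12.96 (mean log2 signal). Of 7 nuclear genes that mark mitochondrial content 4 fell, Tomm20 with −0.58, Cs with −0.39, Idh3a with −0.29 and Mdh2 with −0.28. Adipocyte markers rose for 4 of 6 genes, Lep, Cidec, Adipoq and Retn, and their mean log2 level was 9.34 to 10.5 in BF and 8.09 to 8.56 in BG, while their summed linear signal overlapped, at 8551 to 17126 and 9028 to 11114. Tendon and cartilage markers fell for 5 of 7 genes, with a summed signal of 1149 to 3409 in BF and 4333 to 6843 in BG. Of 7 macrophage markers Cd68 rose with 3.40 and no other was called, with a summed signal of 1684 to 3628 in BF and 1030 to 1186 in BG. Of 8 epidermis markers 1 rose, Krt1 with 0.55, with a summed signal of 349 to 1042 in BF and 339 to 367 in BG, and of 3 red blood cell markers 1 rose and 1 fell, Hba-a1 with 0.32 and Slc4a1 with −0.56. The part of these tissues and of fibre type in the change of the mitochondrial ribosomal proteins was not tested.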

How the data were processed

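The authors ran RMA in Partek Genomics Suite on Affymetrix mouse genome arrays labelled by a 3′ IVT kit, and the deposited values are the resulting log2 signals. Over 22690 probe sets they span 2.11 to 14.53, and the medians of the arrays lie between 6.17 and 6.25. After 64 control probe sets were left out, 22626 were tested without a filter or further scaling. Scaling and probe position can shift array signals, and the number of arrays limits the precision. The table holds no columns of the authors' own comparisons.

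Samples were grouped by their titles. Nothing says beyond the group sizes whether arrays of a group are separate mice in both muscles, so p-values measure the spread between these arrays. The descriptions of BF EDL2 and EDL3 name other missions than their source names, which was taken as a slip.

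One mean per group was fitted over 18 arrays with limma 3.58.1 in R 4.3.3 (12 residual and 5.10 prior degrees of freedom), with Benjamini-Hochberg adjustment. The script was tested on simulated data. Tables and figures used Python 3.11.15, pandas 2.3.3, numpy 2.4.6 and matplotlib 3.10.9. Gene names came from the platform annotation and locations and promoters from RefSeq (GRCm38.p6).

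Members and lists were chosen with earlier results of these data known. The rule named, per comparison, up to 10 called and not overlapping members in each direction, or the 4 with the smallest p where none was called. It also named members whose probe sets disagreed, Mrps18a, Mrps30 and Mrps36, up to 6 called genes of each other list, and up to 4 members per muscle with another group order. The text gives a selection of these. Altogether 13 other fits or scalings, 2 other call rules and 18 fits without 1 array were tried. Protein sequences were not used here.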

Additional observations from a re-analysis of the deposited data

Results flagged for a closer look

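For 7 members the BF vs. BG change differed between soleus and EDL by the test of that difference in limma (adjusted p under 0.05 over all probe sets). The 7 are 9.46% of the members, close to the 9.11% of probe sets above the median signal that were called lower. Mrpl39, Mrpl44, Mrps17 and Mrps26 lost their call when single arrays were left out. The change of soleus minus that of EDL was −1.21 for Mrpl18, −1.19 for Mrps9, −0.76 for Mrps23, −0.66 for Mrpl39, −0.66 for Mrpl44, −0.61 for Mrps17 and −0.59 for Mrps26 (log2). Mrps17 read from 9.92 to 10.01 in soleus BG and 9.39, 9.64 and 9.46 in soleus BF, against 9.63, 9.41 and 9.59 in EDL BG and 9.53, 9.56 and 9.94 in EDL BF. Mrps26 read 9.28, 9.27 and 9.36 in soleus BG, 8.82, 8.66 and 8.83 in soleus BF, and overlapped in EDL at 8.98, 9.03 and 8.86 in BG and 8.86, 9.15 and 9.03 in BF. The other probe set of Mrpl39 gave −0.85, that of Mrps23 −1.44 and those of Mrpl44 −1.23 and −0.62, all called, while those of Mrps9 gave −0.33, −0.45 and 0.66 and were not called.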

How the results depend on the processing

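Under every alternative tried, the median member kept its direction for both BF comparisons in soleus and for the difference between the muscles. For FC vs. BG in soleus it turned to 0.086 with the Gapdh 3′ minus 5′ signal as covariate, with no member called. That covariate and the fit without the soleus FC arrays were chosen after seeing the data. With the covariate BF vs. FC in soleus had 0 members called and a median of −0.44, EDL BF vs. FC had 1, the difference between the muscles 3 and soleus vs. EDL 12. Of single members it turned Mrpl32 for BF vs. FC to −0.17, and for FC vs. BG Mrpl27 to 0.23, Mrpl1 to 0.38, Mrpl9 to 0.060 and Mrpl24 to 0.0059. BF vs. BG in soleus had 35 calls with it and 35 without the soleus FC arrays. The cause of these changes was not tested.

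A further quantile normalization gave 22 members (median −0.31) in soleus BF vs. BG, 2 in soleus FC vs. BG and 3 (median −0.17) for the difference between the muscles. Setting array medians equal gave 15 for FC vs. BG and 17 for the difference. Array weights gave 33 for soleus FC vs. BG, 18 for the difference, and 2, 9 and 1 for EDL BF vs. BG, BF vs. FC and FC vs. BG. FC vs. BG in soleus had 5 with 1 probe set per gene for all genes and 5 with ordinary contrasts, and the mean of all probe sets left 1 for EDL BF vs. FC. The shares over all probe sets under these fits were not computed.

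A 2-fold threshold left 1 member for soleus BF vs. BG, 1 for BF vs. FC, 2 for the difference, and 0 for FC vs. BG, EDL BF vs. FC and soleus vs. EDL. An unadjusted p gave 32 for soleus FC vs. BG, 29 for the difference, 5, 12 and 4 for EDL BF vs. BG, BF vs. FC and FC vs. BG, and 32 for soleus vs. EDL. Of all 22626 probe sets, in the same order, it gave 6011, 6196, 2690, 3977, 2709 and 7434.

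Leaving out 1 array at a time gave 28 to 46 members for soleus BF vs. BG (median −0.50 to −0.39), 14 to 30 for BF vs. FC (−0.27 to −0.18) and 1 to 12 for FC vs. BG (−0.25 to −0.18). It gave 0 to 0 for EDL BF vs. BG (−0.19 to −0.02), 0 to 3 for BF vs. FC (−0.21 to −0.026) and 0 to 0 for FC vs. BG (−0.10 to 0.047). The difference between the muscles had 3 to 13 (−0.43 to −0.23) and soleus vs. EDL 16 to 24 (−0.02 to 0.09). The lowest count for the difference, 3, came without soleus BG array 2, soleus BG array 3 or EDL BG array 3, and the highest, 13, without EDL BF array 2.

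The replicate numbers of the labels were not taken to pair the arrays. Deviations of same-numbered soleus and EDL arrays correlated from 0.16 to 0.37 in FC, where the other pairs ran from −0.28 to 0.075, but from −0.021 to 0.14 in BF and from −0.049 to 0.20 in BG. A replicate block within muscle gave 13 members for soleus FC vs. BG and 5 for soleus vs. EDL, and a replicate block of condition and number gave 13 for the difference between the muscles. These blocks moved no other count by over 1.5 times.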
